A study of Mus musculus with 35 samples.

Results

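CpG island regions are the accessible regions of mouse hepatocyte chromatin that the deposited annotation places in a CpG island outside its own promoter windows. They were chosen as the rows of the merged peak table whose detailed annotation starts with CpG, and they number 5356 of 177904 regions (3.011%). Of these, 5126 carried the plain CpG label and 230 carried it with a number behind it. The annotation program gives a promoter label (1000 bases before to 100 bases after a transcription start site) precedence over a CpG island label. Thus 0 of the 5356 regions carry the promoter label, and 0 lie within that window of the start the annotation assigns. Some lie at other listed starts: 367 (6.85% of those tested) held a RefSeq start site. The 21692 regions labelled promoter-TSS, whose own island status the table does not give, served as the comparison.

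The assay was ATAC-seq, in which a transposase inserts sequencing adapters into open chromatin, on hepatocyte nuclei purified by INTACT, a method that tags the nuclear envelope in 1 cell type and pulls the tagged nuclei out. All mice, PBS controls included, carried the CAG-Sun1/sfGFP reporter, switched on by Albumin-Cre, so the tag depends on a hepatocyte promoter driving Cre. Nuclei were taken at zeitgeber time 9, and each library came from its own mouse. In the BALB/c mice, 4 bore the C26 colon carcinoma with cachexia (more than 10% weight loss), 4 bore C26 in the pre-cachexia stage, and 4 had received PBS; 4 further mice bore NC26, a tumor after which weight stayed stable, with 4 PBS controls of their own. In the C57BL/6N mice, 4 bore the 8025 tumor with cachexia against 3 PBS controls, and 4 bore the weight-stable MC38 colon carcinoma against 4 PBS controls. These 35 libraries form 9 groups. The library names carry 2 series: all C26 libraries were in series A, all 8025 libraries in series B, and NC26 and MC38 libraries were split 2 and 2 in each group.

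CpG islands are short stretches of mammalian DNA rich in cytosine-guanine dinucleotides that have largely escaped methylation. Most lie at gene starts, where they keep nucleosomes unstable and chromatin open in nearly all cell types, and others, called orphan islands, lie inside or between genes and often mark alternative or unannotated promoters. Cachexia is the loss of muscle and fat during illness, in which the liver mounts an inflammatory acute-phase response driven by cytokines such as interleukin-6.

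The CpG island regions lay mostly just past gene starts. Of the 5356, 3530 (65.9%) lay in an intron more than 100 and at most 1000 bases downstream of the start site, 688 (12.8%) elsewhere in an intron, and 1134 (21.2%) between genes. Of the 4218 intronic regions, 3775 (89.5%) were in intron 1. The median distance from the nearest start site was 363 bases downstream (quartiles 230 and 665), and 872 regions (16.3%) lay more than 10 kb away. The nearest genes numbered 3864, and 2859 of them had 1 such region. Bcor had the most with 20, and many regions overlap: 1866 (34.8%) sat in a run of 2 or more overlapping members, so members near 1 gene can share tags.

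Promoter sequences of 6 genes whose island regions carry the results below are shown for the base composition of the gene starts, which is not that of the regions. Each is the 250 bases before the RefSeq start site (GRCm38.p6, the same assembly as mm10), written 5′ to 3′ on the gene's strand, with every CG dinucleotide in capitals. Socs3 and Cdkn1a are the nearest genes of regions that gained accessibility in both cachexia models. Hlf and Vps13a are those of regions that lost it, and Sall1 of regions that went both ways. The Cux2 start is the CG-poor exception. The named islands of Socs3 and Cux2 lie far from these windows, 38427 and 99139 bases past the start.
Socs3: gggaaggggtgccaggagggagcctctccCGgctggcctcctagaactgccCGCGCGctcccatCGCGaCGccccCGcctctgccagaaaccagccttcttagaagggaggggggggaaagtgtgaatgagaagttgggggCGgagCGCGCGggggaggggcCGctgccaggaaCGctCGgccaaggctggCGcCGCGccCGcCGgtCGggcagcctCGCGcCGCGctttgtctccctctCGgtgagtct
Cdkn1a: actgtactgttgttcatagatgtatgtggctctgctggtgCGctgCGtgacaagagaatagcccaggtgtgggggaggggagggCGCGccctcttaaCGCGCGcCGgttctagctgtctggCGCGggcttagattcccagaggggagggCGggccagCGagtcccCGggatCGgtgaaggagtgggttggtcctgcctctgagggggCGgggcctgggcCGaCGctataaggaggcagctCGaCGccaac
Hlf: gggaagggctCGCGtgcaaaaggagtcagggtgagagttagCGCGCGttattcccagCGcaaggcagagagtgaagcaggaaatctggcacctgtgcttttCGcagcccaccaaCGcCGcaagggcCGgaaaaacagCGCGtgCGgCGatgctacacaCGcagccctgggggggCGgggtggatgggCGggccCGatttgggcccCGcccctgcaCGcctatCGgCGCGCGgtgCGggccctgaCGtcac
Vps13a: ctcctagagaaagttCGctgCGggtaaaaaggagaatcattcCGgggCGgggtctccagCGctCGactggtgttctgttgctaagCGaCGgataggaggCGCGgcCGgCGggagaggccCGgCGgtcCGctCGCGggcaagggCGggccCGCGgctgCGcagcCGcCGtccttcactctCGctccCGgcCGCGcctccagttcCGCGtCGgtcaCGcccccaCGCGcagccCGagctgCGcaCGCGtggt
Sall1: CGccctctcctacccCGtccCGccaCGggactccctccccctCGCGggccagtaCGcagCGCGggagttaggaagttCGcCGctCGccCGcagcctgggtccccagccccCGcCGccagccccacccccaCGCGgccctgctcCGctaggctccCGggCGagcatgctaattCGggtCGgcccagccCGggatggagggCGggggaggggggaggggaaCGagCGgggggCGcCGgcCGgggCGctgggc
Cux2: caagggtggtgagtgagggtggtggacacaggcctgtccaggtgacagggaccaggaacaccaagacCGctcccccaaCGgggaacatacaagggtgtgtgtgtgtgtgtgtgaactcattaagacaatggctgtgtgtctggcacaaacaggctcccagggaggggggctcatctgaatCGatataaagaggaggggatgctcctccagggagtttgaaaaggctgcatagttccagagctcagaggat

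The Socs3 window (chr11:117969367-117969616, minus strand) held 26 CG dinucleotides, the Cdkn1a window (chr17:29093519-29093768, plus strand) 19, the Hlf window (chr11:90390918-90391167, minus strand) 26, the Vps13a window (chr19:16780934-16781183, minus strand) 37 and the Sall1 window (chr8:89042863-89043112, minus strand) 30. The Cux2 window (chr5:122047826-122048075, minus strand) held 3, against a median of 6 over all 32851 RefSeq windows. The observed-to-expected CG ratio was 0.82, 0.77, 0.93, 1.17 and 0.78 in the first 5 genes as listed and 0.17 at Cux2. A search of both strands for the letters GGGCGG, a GC box bound by Sp1 family factors, found them at Socs3, Cdkn1a, Hlf, Vps13a and Sall1 and in 32.7% of all windows. The letters TATAAA were found at Cux2 and in 12.4% of all windows, TGACGT at Hlf (6.47%), and TGCGCA at Vps13a (6.43%). These are matches of letters, not measured binding sites. The Sall1 window overlaps an accessible island region by 212 bases. Windows matched under 80% of the regions' nearest genes, so no comparison of letters between groups of regions was made.

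The libraries held 11.3 M to 23.8 M tags, except 3.47 M in NC26 tumor replicate 1, whose values are the least precise, and 37.3% to 62.9% of tags fell in the regions. The labelled cell type was checked at promoter regions within 1000 bases of marker genes: 10 of 11 hepatocyte markers had one, with a median of 133.96 scaled tags (28.29 to 279). Macrophage markers had a region at 2 of 11 genes (median 4.42), endothelial markers at 6 of 12 (6.61), stellate cell markers at 4 of 11 (14.18), cholangiocyte markers at 5 of 9 (22.8), neutrophil markers at 2 of 10 (23.79) and lymphocyte markers at 0 of 12. In bulk nuclei, more cells with an open region and more open chromatin per cell cannot be told apart.

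Values, here called scaled tags, are tags per 400-base region after the authors brought every library to a common total of 10 M. CpG island regions had a median of 22.4 scaled tags over the 35 libraries (quartiles 13.3 and 42.3), below the 45.9 of promoter regions and above the 10.9 of all regions, the 15.3 of intronic regions within 1000 bases downstream of a start that lack the island label, and the 8.79 of other intergenic regions. Their upper quartile differed by place: 74.3 scaled tags between genes, 57.2 deep in introns and 36.8 just past the start, although the medians were close (24.3, 21.7 and 22.3). A peak had been called in all 35 libraries at 1048 island regions (19.6%) and 45.2% of promoter regions, and in 1 library at 938 (17.5%) and 10.9%. By place, the share with a peak in every library was 30.2% between genes, 26.6% deep in introns and 14.8% just past the start. The typical SD between replicates on the log2 scale was 0.307 at island regions, against 0.275 at promoters and 0.435 over all regions.

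The regions with the highest level were Larp1b 1114 bases upstream of the start (531 scaled tags), Gtdc1 65553 bases upstream (516), Ccdc9 473 bases downstream (454), Ssc4d 11775 bases downstream (414) and 9330102E08Rik 16965 bases upstream (409). At the Larp1b region the 4 C26 cachexia libraries read 521, 559, 509 and 564 and the 4 C26 PBS libraries 401, 558, 459 and 433, which overlap. Of the 5, the Ccdc9 region was called in C26 cachexia (log2 change 0.20, adjusted p = 0.022), and that call was lost without C26 cachexia replicate 1 or without C26 PBS replicate 1, 3 or 4. The lowest levels were at Olfr153, an odorant receptor gene (0.85 scaled tags), G530011O06Rik (1.1) and Asap2 (1.78). The Olfr153 region was the 1 member that did not pass the filter on low values, which left 5355 for the tests.

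A larger share of intergenic island regions than of other intergenic regions held a RefSeq start site. Of 1133 intergenic members tested, 119 (10.5%) held a start site in the RefSeq table, against 704 of the other intergenic regions (1.2%). Intergenic island regions with a listed start had a median of 52.6 scaled tags and those without one 22.7. Over all members, 367 (6.85%) held one. The table is not complete, so these are minimum counts.

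The mean signal of CpG island regions relative to that of promoter regions was lower in cachexia than in PBS in both models. In 8025 cachexia the ratio was 0.504 ± 0.0084 (SD, n = 4), against 0.522 ± 0.0019 in 8025 PBS (n = 3), and the 4 cachexia libraries (0.492 to 0.509) lay below all 3 PBS libraries (0.521 to 0.524). In C26 cachexia it was 0.504 ± 0.0088 (n = 4), against 0.530 ± 0.0177 in C26 PBS (n = 4), with ranges of 0.491 to 0.511 and 0.510 to 0.550 that just met. Pre-cachexia libraries read 0.518 to 0.529, inside the C26 PBS range, and the tumor and PBS ranges of NC26 and of MC38 overlapped widely. No test was made of this ratio. In C26 PBS replicates 1 to 4 it was 0.537, 0.510, 0.521 and 0.550, with 38.7%, 51.7%, 45.3% and 38.6% of tags in the regions. Libraries of other groups, picked after their values were seen, went both ways. MC38 PBS replicate 2 had 38.6% of tags in the regions and a ratio of 0.544. In 8025 cachexia replicate 1 the values were 54.3% and 0.492, and in MC38 tumor replicate 3 they were 56.7% and 0.540. The part of this share in the ratio was not tested.

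**Figure D1:**
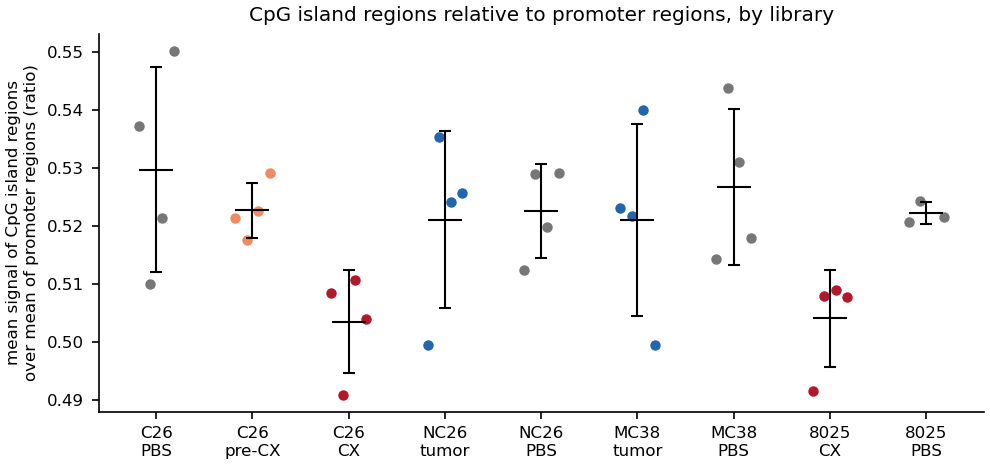
Ratio of the mean signal of CpG island regions to the mean signal of promoter regions, 1 point per library in 9 groups, with the mean and SD as bar and whiskers. The 4 libraries of 8025 cachexia (0.492 to 0.509) sit below the 3 of 8025 PBS (0.521 to 0.524), and those of C26 cachexia reach from 0.491 to 0.511, against 0.510 to 0.550 in C26 PBS.

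Region by region, 392 CpG island regions changed in C26 cachexia and 385 in 8025 cachexia. A region was called where the adjusted p was at most 0.05 in limma (Benjamini-Hochberg over all 177251 regions tested). In C26 cachexia against PBS, 195 island regions rose and 197 fell (7.32%), beside 14.0% of all regions, and by direction 3.64% and 3.68%, beside 6.91% higher and 7.13% lower over all regions. In 8025 cachexia against PBS, 97 rose and 288 fell (7.19%), beside 12.4% of all regions, and by direction 1.81% and 5.38%, beside 6.99% and 5.38%. The regions called lie nearest 157 genes higher and 177 lower in C26 cachexia, and 80 higher and 252 lower in 8025 cachexia. Changes were moderate: the median called log2 change was 0.56 upward and -0.65 downward in C26 cachexia and 0.90 upward and -0.65 downward in 8025 cachexia. A 2-fold change was passed upward by 28 regions and downward by 15 in C26 cachexia, and by 38 and 22 in 8025 cachexia.

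Summed signal at marker promoters differed between cachexia and PBS for several cell types, and the part of this in the results was not tested. Of the 10 hepatocyte marker regions, limma called 7 higher in C26 cachexia and none in 8025 cachexia. They summed to 1397.7 to 1560.7 scaled tags in C26 cachexia, against 1036.2 to 1460.1 in C26 PBS, and to 1437.9 to 1758.2 in 8025 cachexia, against 1460.3 to 1548.6 in 8025 PBS. The 5 cholangiocyte regions, 1 of them called higher in each model, summed to 130.3 to 147.1 in C26 cachexia, against 83.3 to 127.5 in C26 PBS, and to 161.4 to 184.3 in 8025 cachexia, against 123.0 to 171.1 in 8025 PBS. The 4 stellate cell regions, 1 called higher and 1 lower in 8025 cachexia, summed to 53 to 75.9 in 8025 cachexia, below the 77.6 to 100.3 of 8025 PBS, and to 56.5 to 72.3 in C26 cachexia, against 51.7 to 85.4 in C26 PBS. The 2 neutrophil regions, 1 called higher in 8025 cachexia, summed to 52.8 to 57.7 in C26 cachexia, against 28.2 to 48.1 in C26 PBS, and to 46.7 to 73.6 in 8025 cachexia, against 38.3 to 42.4 in 8025 PBS. The 2 macrophage regions, of which 0 were called, overlapped PBS in both models, with 7.1 to 12.1 in C26 cachexia, against 3.2 to 8.0 in C26 PBS, and 9.4 to 31.4 in 8025 cachexia, against 4.1 to 10.6 in 8025 PBS. The 6 endothelial regions, 1 called lower in C26 cachexia, summed to 45.6 to 53.5 in C26 cachexia, against 37.6 to 59.8 in C26 PBS, and to 40.2 to 50.3 in 8025 cachexia, against 36.5 to 42 in 8025 PBS.

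The split between directions depended on how libraries were scaled. Scaling by library totals gave 131 higher and 56 lower in C26 cachexia and 87 higher and 77 lower in 8025 cachexia. Scaling on the island regions themselves gave 163 higher and 144 lower in 8025 cachexia, and a fit with each library's island share as a covariate gave 162 and 131. Falls outnumbered rises in 8025 cachexia under TMM over all regions and under RLE scaling (111 higher and 254 lower), and not under these 3 settings. Scaling on the island regions and the island-share covariate both use the members' own signal. They remove or reduce a shift common to island regions by construction, so they cannot show whether there was one. Single libraries also moved the counts by more than 1.5-fold: the 197 regions lower in C26 cachexia became 108 without C26 PBS replicate 4 and 130 without C26 cachexia replicate 3. The 288 lower in 8025 cachexia became 115 without 8025 PBS replicate 2 and 171 without 8025 cachexia replicate 3, and the 97 higher became 64 without 8025 PBS replicate 1.

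Set beside promoters, island regions had the lower median change in both models. The gap to promoters kept its sign under each scaling tried. A scaling shifts both medians nearly alike, so this is no check of the gap. Promoter regions gave 1772 higher (8.17%) and 546 lower (2.52%) in C26 cachexia, and 694 higher (3.2%) and 858 lower (3.96%) in 8025 cachexia. The median log2 change in C26 cachexia was -0.024 over island regions, 0.068 over promoters and -0.014 over all regions. In 8025 cachexia it was -0.089 over island regions, -0.024 over promoters and -0.012 over all regions. The island median minus the promoter median was -0.094 to -0.079 in C26 cachexia and -0.073 to -0.007 in 8025 cachexia over all full-sample settings, and -0.007 came from the fit with the island share as a covariate. Intronic regions equally close to a start but without the island label had a median of -0.051 in C26 cachexia, with 184 higher and 216 lower, and of -0.090 in 8025 cachexia, with 136 higher and 238 lower. These medians too lay below those of promoters.

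**Figure D2:**
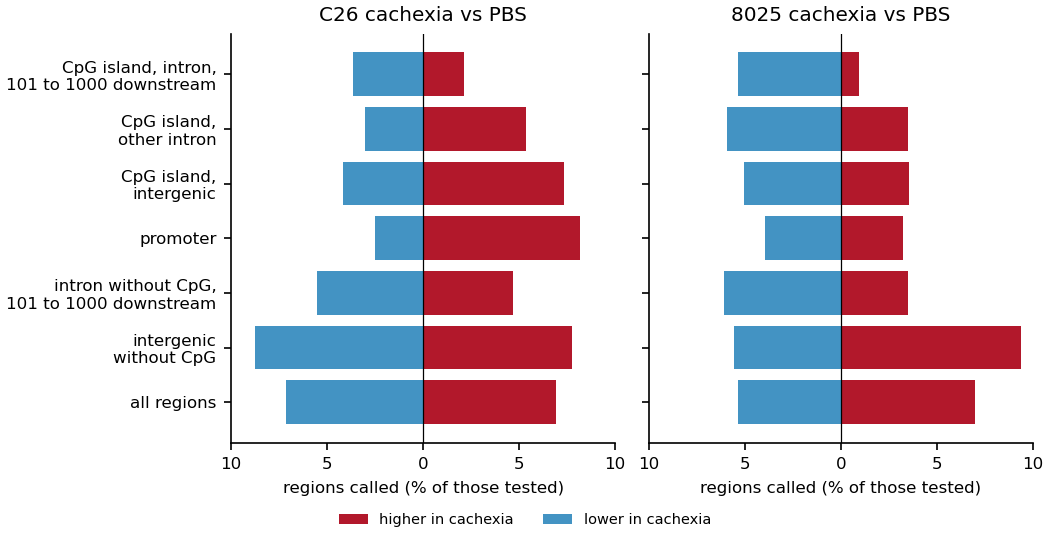
Percent of regions called higher and lower (limma, adjusted p at most 0.05, TMM scaling over all regions) in C26 cachexia and in 8025 cachexia against PBS, for island regions by place, promoters, other regions and all regions. Island regions just past the start read 2.12% higher and 3.65% lower in C26 cachexia and 0.935% and 5.38% in 8025 cachexia, while scaling by library totals gave 87 higher and 77 lower island regions in 8025 cachexia instead of 97 and 288.

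Under TMM scaling over all regions, the counts by direction differed with the place of the island. Among the 3530 regions just past a start, 75 rose and 129 fell in C26 cachexia (median log2 change -0.052), and 33 rose and 190 fell in 8025 cachexia (-0.123). Deep intronic islands gave 37 higher and 21 lower in C26 cachexia (0.026) and 24 and 41 in 8025 cachexia (-0.008). Intergenic islands gave 83 higher and 47 lower in C26 cachexia (0.044) and 40 and 57 in 8025 cachexia (-0.019). The window from just beyond 250 to 500 bases downstream held 1951 members and gave 35 higher and 71 lower in C26 cachexia and 15 higher and 111 lower in 8025 cachexia. Between 1 and 10 kb downstream, 482 members gave 32 higher and 16 lower in C26 cachexia and 20 and 33 in 8025 cachexia. The difference in direction between places was not tested.

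Regions of high signal were called at larger shares. All regions were cut into 5 equal bins by mean signal, and in the highest bin, which starts at 35.593 scaled tags, 15.2% of island regions were called in C26 cachexia and 13.9% in 8025 cachexia. In the same bin and order, the shares were 14.0% and 7.61% of promoters and 26.9% and 22.3% of other intergenic regions. For unlabelled intronic regions near the start they were 20.3% and 20.8%. By direction, 8.48% of island regions were higher and 6.67% lower in C26 cachexia, against 11.6% and 2.38% of promoters of that level. In 8025 cachexia the shares were 2.61% and 11.3%, against 2.43% and 5.18% of promoters. Just past the start, 12.6% of the islands in that bin were lower in 8025 cachexia, and 16.1% of unlabelled intronic regions at the same distance were.

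**Figure D3:**
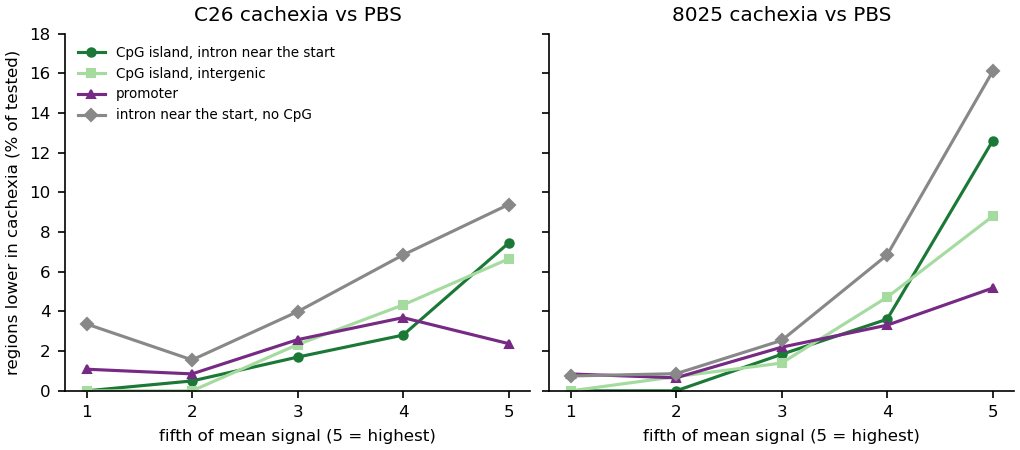
Percent of regions called lower against PBS, in 5 equal bins of mean signal over the 35 libraries, for 4 classes of regions in C26 cachexia and 8025 cachexia (limma, TMM scaling over all regions). In the highest bin in 8025 cachexia, 12.6% of islands just past the start and 8.8% of intergenic islands were lower. The shares were 5.18% of promoters and 16.1% of intronic regions near the start without the island label.

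For 2762 genes, an island region just past the start could be set beside the promoter region of the same gene, which shares its library scaling. The island regions were lower in level, with a median of 23.1 scaled tags, against 80.9 at the promoters. In C26 cachexia the island region's log2 change lay below its promoter's at 67.6% of genes, with medians of -0.046 and 0.08, and 56 islands rose and 103 fell while 230 promoters rose and 41 fell. In 8025 cachexia the island lay below its promoter at 63.4% of genes, with medians of -0.123 and -0.035, and 24 islands rose and 146 fell while 55 promoters rose and 88 fell. Both members of a pair rose at 18 genes and fell at 12 in C26 cachexia, and rose at 13 and fell at 29 in 8025 cachexia. The share of genes with the island below the promoter was 56.5% in NC26, 50.8% in MC38 and 57.2% in pre-cachexia.

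In C26 cachexia, the named island regions that rose lay, from the largest rise down, near Armc12, Creld2, Cdkn1a, Srrm4os, Socs3, Ntf3, Bcor and Rbx1. The rule named the 8 largest rises and 8 largest falls among called regions with non-overlapping groups and a level at or above the member median. The largest rise was at an intergenic region 7700 bases upstream of Armc12, a gene known from sperm mitochondria in mice (mm10 chr17:28522961-28523361). It read 139, 143, 124 and 136 scaled tags in C26 cachexia, against 39.5, 29.9, 26.9 and 21 in C26 PBS. All cachexia libraries were more than 3 times as high as any PBS library, with a log2 change of 2.15 ± 0.39 (SE, adjusted p = 0.00029). The region also read differently by library series, whose part was not tested: in MC38 PBS it read 18.5 and 13.2 in series A and 90.1 and 77.8 in series B.

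Socs3, the feedback inhibitor of interleukin-6 receptor signalling, had an intergenic island 38427 bases downstream of its start (chr11:117930739-117931139). It read 48.3, 44.3, 41.8 and 27.1 scaled tags in C26 cachexia, against 12.4, 13.4, 14.9 and 17.4 in C26 PBS. The groups did not overlap, and the log2 change was 1.34 ± 0.22 (adjusted p = 1.2e-05). Cdkn1a encodes p21, an inhibitor of cyclin-dependent kinases induced by p53, and its intronic island 1784 bases past the start (chr17:29095353-29095753) rose by 1.38 ± 0.23 (adjusted p = 2.7e-05). It read 45.7, 60.1, 54.1 and 67.5 in C26 cachexia, against 28.2, 27.4, 20.7 and 10.5 in C26 PBS, and the lowest PBS library lay well apart below the other three. Creld2, induced by endoplasmic reticulum stress, had an island 17915 bases downstream (chr15:88837361-88837761) that averaged 157 ± 12.9 in C26 cachexia and 57.8 ± 9.63 in C26 PBS (SD, n = 4 each). Its log2 change was 1.39 ± 0.18 (adjusted p = 4.5e-07).

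The other rises were at Srrm4os (1.36), Ntf3 (1.25), Bcor (1.15) and Rbx1 (1.11) on the log2 scale. Ntf3 encodes the growth factor neurotrophin-3, and its region 1496 bases past the start read 68.6, 28.5, 61.9 and 61.7 in C26 cachexia, against 21.4, 22.9, 19.8 and 18.8 in C26 PBS. One cachexia library, replicate 2, stood close to the PBS range, and the other three lay between 61.7 and 68.6. Bcor encodes a subunit of a Polycomb repressive complex that is directed to CpG islands, and its intronic region 24322 bases past the start averaged 52.2 ± 11.2 in C26 cachexia and 22.1 ± 4.36 in C26 PBS (adjusted p = 0.0041). Rbx1 encodes the RING subunit of cullin ubiquitin ligases, and its region 56837 bases downstream averaged 39.1 ± 12.1 in C26 cachexia and 16.4 ± 2.16 in C26 PBS (adjusted p = 0.00027).

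The falls in C26 cachexia were led by 2 transcription factor genes. Cux2 encodes a homeodomain factor that is female-biased in mouse liver, and its island lies in intron 2, 99139 bases past the start (chr5:121948486-121948886). It read 10.0, 13.1, 10.7 and 9.94 scaled tags in C26 cachexia, against 39.7, 39.8, 33.1 and 44.5 in C26 PBS, and fell by 1.81 on the log2 scale (SE 0.24, adjusted p = 4e-07). All 4 cachexia libraries lay far below all 4 PBS libraries. Hlf, a circadian output factor of the PAR bZIP family that acts on liver metabolic genes, fell at its intron 1 island 1241 bases past the start (chr11:90389476-90389876). The values were 19.3, 12.7, 17.8 and 17.8 in C26 cachexia and 33.3, 49.7, 35 and 34.4 in C26 PBS, with a log2 change of -1.18 ± 0.21 (adjusted p = 7.1e-05).

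Rpia, an enzyme of the pentose phosphate pathway, had a region 330 bases past the start (chr6:70791645-70792045) that averaged 31.4 ± 5.65 in C26 cachexia and 65.7 ± 5.43 in C26 PBS, a log2 change of -1.11 (adjusted p = 0.0064). Pdgfa, a growth factor ligand, had a region 1139 bases upstream (chr5:138995892-138996292) that read 19.5 to 22.9 in C26 cachexia and 41.2 to 46.4 in C26 PBS, 2 tight and separate groups (-1.04, adjusted p = 3.9e-05). The other falls were at Cabyr, a sperm protein gene (-0.97), Slc35a3, a Golgi nucleotide sugar transporter (-0.96), Zswim6 (-0.96) and Fam46c, a poly(A) polymerase (-0.95). At all 8 the highest cachexia library was below the lowest PBS library, as the rule required.

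**Figure D4:**
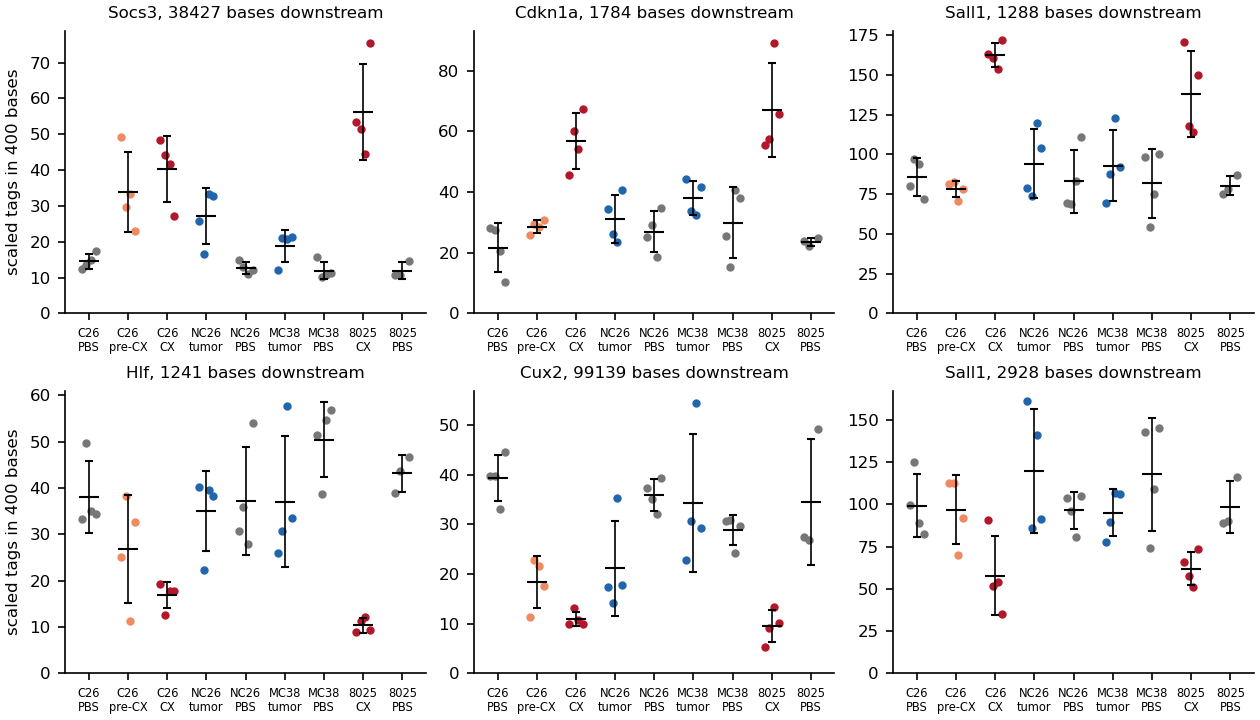
Scaled tags of 6 CpG island regions in every library by group, with the mean and SD. Socs3, Cdkn1a and the Sall1 region 1288 bases past the start stand higher in both cachexia groups than in their PBS groups, and Hlf, Cux2 and the Sall1 region 2928 bases past the start stand lower. In C26 cachexia the lower Sall1 region overlaps PBS.

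In 8025 cachexia, 6 of the 8 named rises were at regions also named in C26 cachexia by the same rule, and the change at Socs3 was the largest. The Socs3 region 38427 bases downstream read 53.5, 51.4, 44.4 and 75.6 scaled tags in 8025 cachexia, against 10.6, 10.6 and 14.7 in 8025 PBS. The log2 change was 2.08 ± 0.23 (adjusted p = 2.3e-08), and every cachexia library was at least 3 times as high as any PBS library. Armc12 averaged 127 ± 13.6 in 8025 cachexia (n = 4) and 30.3 ± 7.98 in 8025 PBS (n = 3), a log2 change of 2.01 (adjusted p = 0.0017). Ntf3 rose by 1.55 (adjusted p = 5.6e-06), Cdkn1a by 1.39 (adjusted p = 9.3e-05), Bcor by 1.18 (adjusted p = 0.0074) and Creld2 by 0.96 (adjusted p = 0.00053). The Bcor call was lost without 8025 PBS replicate 1 (adjusted p = 0.074).

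The other named rises in 8025 cachexia were at Foxp4 and Gpat3. Gpat3, an acyltransferase of glycerolipid synthesis, read 54.7, 51.9, 75.2 and 54.7 scaled tags 206 bases past the start in 8025 cachexia, against 21.8, 23.3 and 34 in 8025 PBS (log2 change 1.10, adjusted p = 5.9e-05). In C26 the same region averaged 69.7 ± 2.63 in cachexia and 56.1 ± 11.7 in PBS, and was not called (0.28, adjusted p = 0.33). The Foxp4 region lay 49693 bases upstream of that forkhead gene and rose by 1.26 (adjusted p = 0.001). It averaged 99.2 ± 17.1 in 8025 cachexia and 39.4 ± 6.37 in 8025 PBS, and it read 46.5, 63.1, 124 and 106 in weight-stable MC38 tumor mice, against 50.0, 36.6, 33.8 and 39.1 in MC38 PBS.

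The falls in 8025 cachexia included both transcription factor genes that led the falls in C26 cachexia. Hlf read 8.87, 11.2, 12.2 and 9.31 scaled tags in 8025 cachexia, against 39, 43.7 and 46.8 in 8025 PBS, a log2 change of -2.01 ± 0.23 (adjusted p = 3.3e-08). Cux2 averaged 9.49 ± 3.27 in 8025 cachexia and 34.4 ± 12.7 in 8025 PBS (-1.80, adjusted p = 3.1e-06). Rpia averaged 30.3 ± 0.329 in 8025 cachexia and 90.9 ± 28.8 in 8025 PBS (-1.56, adjusted p = 0.00065). The 4 cachexia libraries at Rpia were almost identical while the PBS libraries spread from 65.8 to 122.

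Vps13a, which encodes a bridge-like lipid transfer protein, fell 488 bases past its CG-rich start (chr19:16780245-16780645). It read 35.8, 25.9, 24.2 and 35.2 in 8025 cachexia, against 76.3, 104 and 70.7 in 8025 PBS (-1.49 ± 0.18, adjusted p = 9.3e-08), and 44.3 to 52 in C26 cachexia, against 63.5 to 84.0 in C26 PBS (-0.59, adjusted p = 0.0098). Bhlhe41 encodes a repressor of the circadian clock, and its region 1011 bases upstream averaged 30.0 ± 7.35 in 8025 cachexia and 69.8 ± 7.98 in 8025 PBS (-1.27, adjusted p = 0.00013). Got2, the mitochondrial aspartate aminotransferase, averaged 26.9 ± 5.83 in 8025 cachexia and 58.9 ± 11.2 in 8025 PBS at a region 237 bases past the start (-1.16, adjusted p = 6.2e-06). The other falls were Ttc7b (-1.23) and Jade2, a subunit of a histone acetyltransferase complex (-1.05). At Jade2 the C26 log2 change was 0.01 (adjusted p = 0.99).

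**Figure D5:**
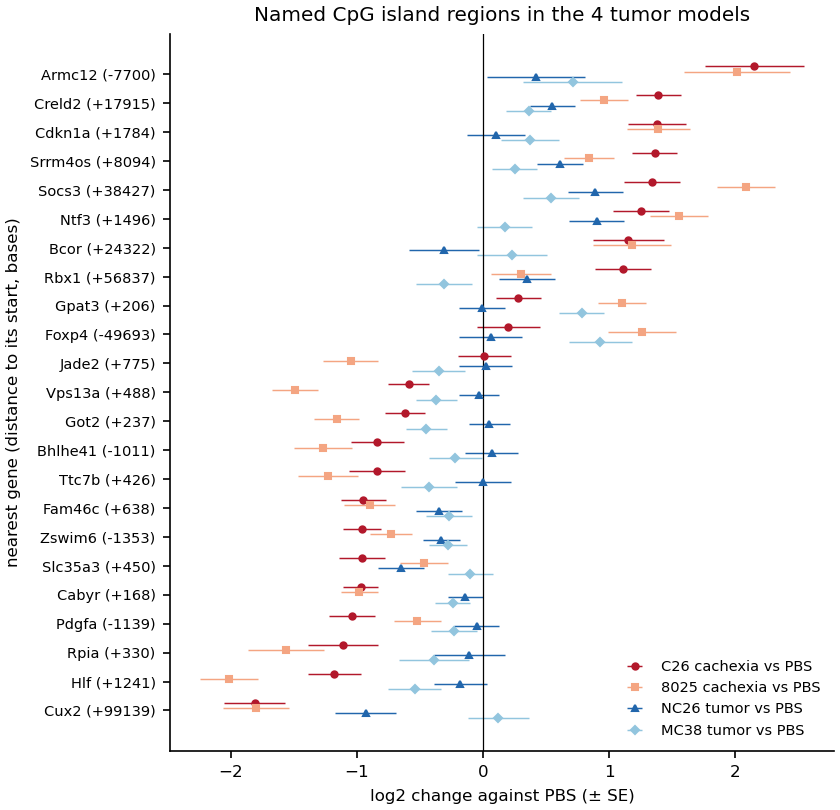
Log2 change with SE of the named CpG island regions in the 4 tumor models against their PBS controls. Socs3 reads 2.08 in 8025 cachexia and 1.34 in C26 cachexia, Hlf -2.01 and -1.18, while in the weight-stable models Socs3 reads 0.89 in NC26 and 0.54 in MC38 and Hlf -0.18 and -0.54.

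The 2 cachexia comparisons have separate controls, and 47 island regions were higher in both, which is 24.1% of the 195 in C26 and 48.5% of the 97 in 8025. Lower in both were 97, which is 49.2% of the 197 in C26 and 33.7% of the 288 in 8025. Over all regions the shares were 45.8% and 45.3% for rises and 37.2% and 49.2% for falls. No island region rose in one model and fell in the other (0 of either kind), and the same count over all regions was not made.

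At several genes more than 1 island region was called, and these genes were picked out after their values were seen. All 4 Cdkn1a regions rose in C26 cachexia (0.89 to 1.38), of which 3 overlap each other, and 2 of the 4 rose in 8025 cachexia, 1 of which was lost without 8025 PBS replicate 2 (adjusted p = 0.058). At Socs3, 3 of 4 rose in C26 cachexia and 4 of 4 in 8025 cachexia, from 5838 to 38427 bases downstream. All 3 regions nearest Fos, an immediate-early transcription factor gene, rose in C26 cachexia (0.60, 0.58 and 0.27). Of 5 regions at Mnt, a repressor that competes with Myc, 4 rose in C26 cachexia (0.28 to 0.66). All 3 Tmcc3 regions fell in both models, by 0.58 to 0.74 in C26 cachexia and by 0.95 to 1.01 in 8025 cachexia, and they overlap. At Cdkn2c, which encodes another cyclin-dependent kinase inhibitor, 3 of 3 fell in 8025 cachexia (-0.66, -0.73 and -0.64).

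Sall1, a zinc-finger transcription factor gene of development, had island regions that moved in opposite directions near the start. The region 1288 bases past the start in the deposited annotation (chr8:89042674-89043074) overlaps the promoter window shown above. That window belongs to another RefSeq start of Sall1, which lies inside the region. The region read 163, 161, 154 and 172 scaled tags in C26 cachexia, against 80.1, 96.9, 94.1 and 72.1 in C26 PBS. It rose by 0.87 ± 0.11 (adjusted p = 1.1e-07), and by 0.71 in 8025 cachexia (adjusted p = 2.8e-05), where it averaged 138 ± 27.4 in cachexia and 80.2 ± 6.0 in PBS. The region 2928 bases past the start (chr8:89041034-89041434) read 90.6, 51.8, 54.1 and 35 in C26 cachexia, against 99.9, 125, 89.2 and 82.6 in C26 PBS. It fell by 0.88 (adjusted p = 0.00038), with cachexia replicate 1 inside the PBS range, and by 0.71 in 8025 cachexia (adjusted p = 0.0086).

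In the pre-cachexia stage few island regions differed from PBS. In C26 pre-cachexia, 20 rose and 5 fell (0.467%), beside 1.27% of all regions, of which 0.97% rose and 0.296% fell. Socs3 rose by 1.02 (adjusted p = 0.006), with 49.3, 29.6, 33.2 and 23 scaled tags in pre-cachexia, against 12.4, 13.4, 14.9 and 17.4 in PBS. Srrm4os rose by 0.96 (adjusted p = 0.002), Atp23, near the gene of a mitochondrial protease, by 0.85 (adjusted p = 0.0059), and Cux2 fell by 1.20 (adjusted p = 0.0038). Cux2 read 11.3, 22.9, 21.6 and 17.6 in pre-cachexia, below all 4 PBS libraries. The Socs3 and Cux2 calls were lost without pre-cachexia replicate 1 (adjusted p = 0.081 and 0.05, just above the threshold). Without that library the count of rises was 5, without PBS replicates 1, 2 and 3 it was 11, 9 and 11, and without pre-cachexia replicates 2 and 4 it was 13 and 12. Falls numbered 3 when PBS replicate 1 was left out, 2 without pre-cachexia replicate 1 and 8 without pre-cachexia replicate 2.

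Between cachexia and pre-cachexia, 45 island regions were higher and 41 lower in cachexia (1.61%), beside 5.4% of all regions, of which 2.16% were higher and 3.24% lower. The largest rises were at Armc12 (2.27, adjusted p = 0.00059), the Cdkn1a region 960 bases past the start (1.61, adjusted p = 0.0013) and Bcor (1.40, adjusted p = 0.0017). At Armc12 cachexia libraries read 124 to 143 and pre-cachexia libraries 20.8 to 54.9. The largest falls were at Cabyr (-1.14, adjusted p = 3.3e-07), Prickle1 (-1.14, adjusted p = 0.043) and Pdgfa (-0.98, adjusted p = 0.00035). The Prickle1 call was lost when any of 7 of the 8 libraries was left out, all but pre-cachexia replicate 1. The count of rises was 21 and 27 without pre-cachexia replicates 2 and 4 and 24 without cachexia replicate 4. The count of falls was 9 and 17 without pre-cachexia replicates 2 and 4, and 19 without either cachexia replicate 2 or cachexia replicate 4.

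In the weight-stable tumor models nearly no island region was called. In NC26 against PBS, 2 rose and 2 fell (0.0747%), beside 0.186% of all regions, of which 0.146% rose and 0.0401% fell. The 2 rises, named here after their values were seen, overlap each other near Mir6951, and the stronger one rose by 1.08 (adjusted p = 4.7e-06), by 1.00 in C26 cachexia (adjusted p = 2e-07) and by 1.17 in 8025 cachexia (adjusted p = 8.5e-08). The 2 falls, at Esrrg (-1.64, adjusted p = 0.032) and Itga6 (-1.55, adjusted p = 0.034), gave a count of 0 without NC26 PBS replicate 1, 2 or 3 or NC26 tumor replicate 1, of 1 without NC26 PBS replicate 4, of 5 without NC26 tumor replicate 3 and of 18 without NC26 tumor replicate 2. Without that last library, 5 rose. In MC38 against PBS, limma called 0 island regions, beside 0.0186% of all regions. There, 221 of 5355 island regions had an unadjusted p of at most 0.05, beside 11208 of all 177251 regions. EdgeR called 1 island region, beside 36 higher and 1 lower over all regions. DESeq2 called 4, beside 223 higher and 26 lower. Limma called 2 without MC38 PBS replicate 1 and 1 without MC38 tumor replicate 1, all higher.

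The change in each cachexia model differed from that in the weight-stable model of the same strain at few island regions. C26 cachexia minus NC26 tumor gave 16 higher and 14 lower (0.56%), beside 2.14% of all regions, of which 1.04% were higher and 1.1% lower. Sall1 had 2 of the 6 named differences: 0.80 at 1288 bases past the start (adjusted p = 0.0022) and -1.04 at 2928 bases (adjusted p = 0.017). Bcor (1.46, adjusted p = 0.042), Cdkn1a (1.27, adjusted p = 0.025), Pdgfa (-0.99, adjusted p = 0.026) and Pdxk-ps, a pseudogene (-0.90, adjusted p = 0.017), were the other 4. All 6 calls were lost under scaling by library totals, where 1 higher and 0 lower were called. The call at the lower Sall1 region was lost without NC26 tumor replicate 1, and that at Pdxk-ps without NC26 PBS replicate 3. Those at Bcor, Cdkn1a and Pdgfa were each lost without any of 5 or more libraries. The count of 16 became 35 and 30 without NC26 tumor replicates 2 and 4, and 6 to 9 without C26 PBS replicate 3 or 4, C26 cachexia replicate 3 or 4, or NC26 PBS replicate 1, 2 or 4. The count of 14 became 5 to 9 without C26 PBS replicate 1, 2 or 4, C26 cachexia replicate 1, 3 or 4, NC26 PBS replicate 1 or 3, or NC26 tumor replicate 1.

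8025 cachexia minus MC38 tumor gave 16 higher and 17 lower (0.616%), beside 1.7% of all regions, of which 0.922% were higher and 0.779% lower. The largest differences upward were at Socs3 (1.54, adjusted p = 0.0053), Ntf3 (1.38, adjusted p = 0.013) and Csf2ra, the receptor subunit for a myeloid growth factor (1.28, adjusted p = 0.035). Downward they were at Cux2 (-1.92, adjusted p = 0.0021), Hlf (-1.47, adjusted p = 0.0067) and Lonrf1 (-1.12, adjusted p = 0.012). Csf2ra rested on 1 library, 8025 cachexia replicate 3, with 131 scaled tags against 50.6, 53.8 and 53.5 in the other three, and its call was lost without it or without any of 8 other libraries. The Ntf3 call was lost without 8025 PBS replicate 1 (adjusted p = 0.052) and the Lonrf1 call without 8025 PBS replicate 2 (adjusted p = 0.071). The count of 16 became 8 without 8025 PBS replicate 1 or MC38 PBS replicate 2, and 10 without 8025 PBS replicate 2 or MC38 tumor replicate 2. The count of 17 became 5 without 8025 PBS replicate 2, 28 without MC38 tumor replicate 4, and 10 or 11 without 8025 PBS replicate 1, 8025 cachexia replicate 3, or MC38 tumor replicate 2 or 3.

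Gene lists of liver and island biology were read through the island region nearest each gene's start, which at some genes lies more than 10 kb away. The lists were chosen with earlier results of these data known. Calls are those of limma, and the shares to read them against are 7.32% of island regions and 14.0% of all regions in C26 cachexia, and 7.19% and 12.4% in 8025 cachexia. Of 21 clock genes, 11 had an island region, and 4 rose and 2 fell in C26 cachexia (median log2 change 0.127), while 1 rose and 2 fell in 8025 cachexia (0.037). The rises in C26 were at Nr1d1 and Nr1d2, which encode REV-ERB repressors, at Per1 and at Bhlhe40, and the falls at Hlf and Bhlhe41. The Nr1d1 region read 269, 262, 242 and 241 scaled tags in C26 cachexia, against 162, 226, 168 and 139 in C26 PBS (0.51, adjusted p = 0.000112). In 8025 cachexia it rose by 0.35 (adjusted p = 0.0173), a call lost without 8025 cachexia replicate 1 or 8025 PBS replicate 4. All libraries were taken at 1 clock time, so the phase of the rhythm was not measured.

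Of 31 genes of cytokine signalling, 11 had an island region, and Socs3 rose in both models at the region 5838 bases downstream (0.54 in C26 cachexia and 0.44 in 8025 cachexia) while limma did not call the others. DESeq2 called 2 of the 11 in each model and edgeR 1. Medians were 0.03 in C26 cachexia and 0.188 in 8025 cachexia. Of 18 immediate-early genes with a region, 3 rose in C26 cachexia (Junb 0.41, Fos 0.58 and Gadd45b 0.61), and 2 fell in 8025 cachexia (Dusp6 -0.54 and Klf10 -0.28). The Fos call was lost without C26 PBS replicate 2 or C26 cachexia replicate 4, and the Gadd45b call without any of 5 of the 8 libraries. Of 8 stress response genes with a region, Creld2 and Atf4, the central factor of the integrated stress response, rose in both models. Atf4 read 78.7, 72.4, 80.7 and 67.9 in C26 cachexia, against 34.4, 56.1, 35 and 36.2 in C26 PBS (0.85), and rose by 0.53 in 8025 cachexia, where the call was lost without cachexia replicates 1 or 2 or PBS replicate 2.

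Liver transcription factor genes had 9 island regions with medians of -0.214 in C26 cachexia and -0.254 in 8025 cachexia. Cux2, Nfe2l2, the oxidative stress factor, and Nr5a2, a bile acid regulator, fell in C26 cachexia (3 of 9), and Cux2 and Nfe2l2 in 8025 cachexia (2 of 9). The Nfe2l2 changes were small (-0.44 in C26 cachexia and -0.42 in 8025 cachexia), and its calls were lost without 2 of the C26 libraries and without 3 of the 8025 libraries. The Nr5a2 call was lost without C26 cachexia replicate 1 or C26 PBS replicate 2. Of 11 cell-cycle genes with a region, Cdkn1a and Ccne1 rose in C26 cachexia, and Cdkn1a rose while Cdkn2c and Cdk2 fell in 8025 cachexia. Of 12 insulin and glucocorticoid genes with a region, Fkbp5, a glucocorticoid-induced chaperone partner, rose in C26 cachexia (0.84, adjusted p = 0.016), lost without cachexia replicates 2 or 4 or PBS replicate 4. Tsc22d3, another glucocorticoid target, fell in 8025 cachexia (-0.84).

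Housekeeping and developmental lists held 0 or 1 called gene each, which at 1 to 18 genes a list is near the share called over all island regions. Among 18 genes of CpG chromatin, Sp1 rose in C26 cachexia (0.26), a call lost without C26 PBS replicates 2 or 3 or C26 cachexia replicate 4, and limma, edgeR and DESeq2 called 0 in 8025 cachexia (0 at an unadjusted p of at most 0.05). Respiratory chain genes gave 0 of 9 in C26 cachexia and 1 of 9 in 8025 cachexia, Uqcrc2 (-0.76, adjusted p = 0.002). Ribosomal protein genes gave 0 of 17 and 1 of 17, Rps4x (-1.22, adjusted p = 0.0497), a call lost under most other settings. The Rps4x region lies 10690 bases from the RefSeq start. For both lists in C26 cachexia, edgeR and DESeq2 also called 0, and 0 genes had an unadjusted p of at most 0.05. Limma, edgeR and DESeq2 each called 0 of 14 proteasome genes, 0 of 17 Polycomb-type developmental genes, 0 of 6 lipid synthesis genes, 0 of 6 imprinted genes, 0 of 7 heat shock genes and 0 of 1 metal-binding genes in both models. At an unadjusted p of at most 0.05 these 6 lists together held 1 gene, a heat shock gene in C26 cachexia. Over all 5355 island regions tested, 898 passed that limit in C26 cachexia and 941 in 8025 cachexia. The medians of the developmental list were 0.048 in C26 cachexia and -0.206 in 8025 cachexia, beside -0.014 and -0.012 over all regions.

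Some island regions differed widely between the 2 strains. Among PBS libraries, 8 from BALB/c and 7 from C57BL/6N mice, regions were counted where the strains did not overlap and their means plus 1 differed at least 4-fold. BALB/c was above C57BL/6N at 6 island regions (0.112%), beside 0.549% of all regions, and below at 19 (0.355%), beside 0.755%. The regions described were picked after their values were seen. Of the 6 above, 4 lie nearest G530011O06Rik, 1 of which averaged 54.7 scaled tags in BALB/c (40.5 to 79.6) and 1.2 in C57BL/6N. Sfi1, 355 bases past the start, averaged 394 scaled tags in BALB/c (340 to 454) and 62.8 in C57BL/6N (49.6 to 77.2). Trim30d, 5558 bases past the start, was at 0 in all 8 BALB/c libraries and averaged 64.0 in C57BL/6N (32.2 to 90.5). Ccl27a averaged 4.83 in BALB/c and 44.2 in C57BL/6N, and H2-Q2, in the major histocompatibility complex, 0.225 in BALB/c and 8.51 in C57BL/6N. Several of these genes belong to families with near-identical copies, the reference genome is from C57BL/6 mice, and the part of mapping in these values was not tested. Most BALB/c PBS libraries were in series A and most C57BL/6N PBS libraries in series B, and the part of library series was not tested either. Each tumor comparison was made within 1 strain.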

How the data were processed

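The authors deposited 1 table of 177904 merged peaks of 400 bases on mm10, in which each signal value is, per the file headers, the number of tags in a region after HOMER brought the library to a total of 10 M. BWA 0.7.5a-r405, SAMtools and HOMER are named in the submitters' processing notes. Unscaling by each library's total gave whole multiples of 0.5 tag for 100% of values (tolerance 0.05 tag), so whole reads were recovered for the edgeR and DESeq2 alternatives, although the main test stayed on the deposited signal because it is normalized.

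Values were divided by TMM factors, and log2(value + 1) was fitted with limma (3.58.1; edgeR 4.0.16, DESeq2 1.42.0, R 4.3.3) with trend and robust variance, with 9 groups and library series B as a term, after a filter (minimum count 10, total 15) that removed 653 regions. Fold changes are on this log2(value + 1) scale and understate changes of low regions. P-values were Benjamini-Hochberg adjusted over the 177251 regions tested, with a threshold of 0.05. Each library came from its own mouse. Ranges and SDs are over libraries; tags without molecular identifiers are not independent molecules. On simulated data for C26 cachexia, run on 177251 regions, 83 of 100 regions changed by a log2 of 1 were recovered and 100 of 100 at a log2 of 2.

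Members and lists were chosen with earlier results of these data known. The rule for named regions took called regions with no overlap between the groups and a level at or above the member median of 22.45, 1 per nearest gene, predicted genes and small RNAs left out: 8 per direction for both cachexia comparisons and 3 for the others, without the overlap condition for differences of effects. It had assumed regions labelled both promoter and island, of which there are none, so the member nearest the start stands for a listed gene. Replicate numbers did not pair the libraries. Alternatives were other scalings (RLE, library totals, TMM from island regions), no filter, a pseudocount of 4, no series term, a replicate block, array weights, the island share as a covariate, 1 cohort at a time, edgeR, DESeq2, 1 region per overlapping run, fits within a series, and each library left out in turn. Sequences are from RefSeq GRCm38.p6, taken as 250 bases before the start.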

Additional observations from a re-analysis of the deposited data

Results flagged for a closer look

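A library stood apart from the other three of its group, by the gap to its neighbour over the range of the group, in 20 of 280 groups checked, and chance gives about 1 in 20. Values are scaled tags unless stated.

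In the C26 cohort, the Armc12 region read 54.9 in pre-cachexia replicate 3, against 20.8 to 23.9 in the others of that group. The Atp23 region read 60.7 in pre-cachexia replicate 2 and the Ttc7b region 19.7 in pre-cachexia replicate 3. The Ntf3 region read 28.5 in C26 cachexia replicate 2, against 61.7 to 68.6 in the others. The Hlf region read 49.7 in C26 PBS replicate 2 and the Rpia region 57.6 in C26 PBS replicate 4. In the NC26 cohort, tumor replicate 1 read 80.6 at Srrm4os, against 50 to 53.9 in the others. Tumor replicate 2 read 5.99 at Bcor, 22.3 at Hlf and 56.9 at Got2, and PBS replicate 3 read 38.5 at Bhlhe41 and 40.9 at Pdxk-ps.

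In the MC38 cohort, tumor replicate 1 read 12 at Socs3, against 20.8 to 21.4 in the others, and tumor replicate 2 read 30.3 at Jade2. PBS replicate 2 read 16.8 at Ntf3, PBS replicate 3 read 24.3 at Cux2 and PBS replicate 4 read 23.6 at Bcor. In 8025 cachexia, replicate 3 read 75.2 at Gpat3 and 131 at Csf2ra, against 50.6 to 53.8 at Csf2ra in the others. The ratio of mean island signal to mean promoter signal was 0.492 in replicate 1, against 0.508 to 0.509.

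The effect of the tumor differed between a cachexia model and the weight-stable model of its strain, by the test of the difference itself in limma, at 12 named regions. For C26 minus NC26 these were Bcor (1.46), Cdkn1a (1.27), Sall1 at its nearer region (0.80) and at its farther one (-1.04), Pdgfa (-0.99) and Pdxk-ps (-0.90). For 8025 minus MC38 they were Socs3 (1.54), Ntf3 (1.38), Csf2ra (1.28), Cux2 (-1.92), Hlf (-1.47) and Lonrf1 (-1.12). Causes were not tested.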

How the results depend on the processing

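Of 75 called values at named regions, 50 kept their call in every setting and 60 in every full-sample setting, and 0 of all named values reversed. Scaling by library totals lost 12 calls, the most of any setting. It also moved the median of all regions in NC26 from -0.03 to 0.072. The counts of island regions below moved by more than 1.5-fold from the stated value, and causes were not tested except where fewer libraries were fitted.

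With library totals, 56 regions (of 197) were lower in C26 cachexia and 77 (of 288) in 8025 cachexia, 2 (of 5) were lower in pre-cachexia, 18 and 18 (of 45 and 41) were higher and lower in cachexia against pre-cachexia, 0 (of 2) were lower in NC26, 1 and 0 (of 16 and 14) differed between C26 and NC26, and 6 and 5 (of 16 and 17) between 8025 and MC38. With TMM from island regions, 163 and 144 (of 97 and 288) were called in 8025 cachexia, 2 higher (of 0) in MC38, and 11 lower (of 17) between 8025 and MC38. With the island share as a covariate, 162 and 131 were called in 8025 cachexia, 1 higher in MC38 and 33 higher between C26 and NC26.

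Replicate numbers did not pair the libraries (correlations of deviations from -0.155 to 0.077). The replicate block gave 150 lower in 8025 cachexia, 1 lower in NC26, 2 higher in MC38 and 9 higher between 8025 and MC38. It changed no other count of calls by that factor. A pseudocount of 4 gave 1 lower in NC26 and 1 higher in MC38. Array weights gave 42 higher and 20 lower (of 20 and 5) in pre-cachexia, 72 and 66 in cachexia against pre-cachexia, 148 higher in 8025 cachexia, 0 lower in NC26, 1 higher in MC38, 7 lower between C26 and NC26 and 25 higher between 8025 and MC38. Fitting 1 cohort alone gave 9 lower in pre-cachexia and 0 lower in NC26. On recovered read ends, edgeR gave 0 lower in NC26, 1 higher in MC38 and 9 higher between C26 and NC26. DESeq2 gave 33 higher and 15 lower in pre-cachexia, 162 higher in 8025 cachexia, 4 higher and 0 lower in NC26, 4 higher in MC38, and 35 and 36 between 8025 and MC38. With 1 region per overlapping run, NC26 gave 1 and 1. Within series A, NC26 gave 0 and 0, and within series B it gave 0 lower and MC38 1 higher.

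Leaving out single libraries gave 134 to 194 higher and 108 to 174 lower in C26 cachexia, 64 to 92 and 115 to 257 in 8025 cachexia, 5 to 19 and 2 to 8 in pre-cachexia, and 21 to 48 and 9 to 56 in cachexia against pre-cachexia. In NC26 it gave 2 to 5 and 0 to 18, in MC38 0 to 2 and 0 to 0, between C26 and NC26 6 to 35 and 5 to 18, and between 8025 and MC38 8 to 18 and 5 to 28. RLE scaling, no filter and no series term moved no count by that factor. NC26 tumor replicate 1 had the fewest tags (3.47 M), and 8025 PBS had 3 libraries where the other groups had 4.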

Other observations

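Among the 13 regions named as lower in either cachexia model, pre-cachexia replicate 3 was the lowest of the 4 pre-cachexia libraries at 9, and replicate 2 was the highest at 11. At Hlf replicate 3 read 11.3 and replicate 2 38.4 scaled tags, at Rpia they read 24.9 and 93.1 in that order, and at Bhlhe41 30.0 and 86.0, while the C26 cachexia libraries read 12.7 to 19.3 at Hlf and 27.6 to 39.8 at Rpia, and the C26 PBS libraries 33.3 to 49.7 and 57.6 to 68.7. At the 10 regions named as higher, no single library stood lowest or highest at more than 5. These values were not divided by the TMM factors, which were 0.914 in replicate 3 and 1.117 in replicate 2. Over all island regions, too, the median was lowest in replicate 3 (20.27) and highest in replicate 2 (24.33) of the 4 pre-cachexia libraries. The order at the named regions was seen in the values and not tested.

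The Bcor locus on chromosome X held 20 island regions, the most of any gene, and G530011O06Rik, Dhrsx and Csf2ra followed with 11, 9 and 8.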
